A study of Mus musculus with 17 samples.

Results

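The resident macrophage genes are 10 genes that mark or are expressed by the macrophages living in the healthy heart. They are Lyve1, Timd4, Folr2, Mrc1, Cd163, F13a1, Cbr2, Csf1r, Adgre1 and Maf. They were picked by symbol, with earlier results of these data known, and each matched 1 of the 31647 rows of the count table, of which 12301 held enough counts to be tested. All mice were young adult male C57BL/6J wild type and carried no transgene. The left anterior descending artery of the heart (LAD) was ligated for good in 9 mice, without reperfusion, and RNA came from the dissected infarct zone (IZ) 5 days (d) later. The other 8 went through the same surgery without ligation, and RNA came from the left ventricle (LV) after the same 5 d. RNA was read by MACE, which sequences the 3′ ends of polyadenylated transcripts and counts each molecule once by an identifier. Levels are given in CPM, a molecule count divided by the scaled size of its library, and since a transcript gives reads from its 3′ end only, levels of different genes were not divided by length.

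Resident cardiac macrophages are largely seeded before birth, maintain themselves in the tissue, clear dying cells and debris, and are known in mice for Timd4, Lyve1 and Folr2. After an infarction, monocytes from the blood enter the wound in large numbers and become macrophages that share the receptors Csf1r and Adgre1 with the resident cells but carry little Timd4. Growth and survival of both depend on the Csf1r pathway, and the transcription factor Maf takes part in the mature macrophage programme.

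Promoter sequences are shown for 4 members, of which Mrc1 was higher in the IZ and Cbr2, Cd163 and Timd4 were lower (Cbr2 and Cd163 turned slightly positive with total counts alone as library sizes), so that genes that moved in opposite directions can be set side by side. Each is the 250 bases before the RefSeq transcription start in build GRCm38.p6, 5′ to 3′. Capitals mark the ETS core GGAAGT, which the macrophage factor PU.1 can bind, and the MAF half-site TGCTGA, both searched on both strands (ACTTCC and TCAGCA on the other strand), and no marked match overlapped another.
Mrc1, chr2:14229164-14229413, plus strand: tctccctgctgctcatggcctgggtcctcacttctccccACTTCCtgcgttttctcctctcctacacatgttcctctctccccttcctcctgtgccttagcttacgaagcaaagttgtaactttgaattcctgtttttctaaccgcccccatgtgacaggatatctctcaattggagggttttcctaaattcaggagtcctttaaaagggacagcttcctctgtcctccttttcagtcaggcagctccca
Cbr2, chr11:120732022-120732271, minus strand: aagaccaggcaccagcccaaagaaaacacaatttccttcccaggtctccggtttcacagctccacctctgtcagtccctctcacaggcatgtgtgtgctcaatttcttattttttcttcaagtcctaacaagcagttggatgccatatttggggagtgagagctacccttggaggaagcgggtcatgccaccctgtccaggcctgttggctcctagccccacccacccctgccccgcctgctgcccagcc
Cd163, chr6:124304401-124304650, plus strand: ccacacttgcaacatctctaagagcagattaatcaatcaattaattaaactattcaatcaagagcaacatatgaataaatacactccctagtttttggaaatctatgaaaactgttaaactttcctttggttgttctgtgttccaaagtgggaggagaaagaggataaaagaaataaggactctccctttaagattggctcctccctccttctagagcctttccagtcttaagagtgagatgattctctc
Timd4, chr11:46810549-46810798, plus strand: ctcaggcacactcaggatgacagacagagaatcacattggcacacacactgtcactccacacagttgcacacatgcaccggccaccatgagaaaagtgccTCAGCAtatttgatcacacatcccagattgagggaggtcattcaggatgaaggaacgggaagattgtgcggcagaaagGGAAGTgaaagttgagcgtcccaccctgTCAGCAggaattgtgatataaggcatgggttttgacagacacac
The ETS core occurred in the promoters of Mrc1 and Timd4, and the MAF half-site occurred in that of Timd4, while the windows of Cbr2 and Cd163 held neither. Windows were matched for 6 of the 10 members, with 8 windows in all since Folr2 and F13a1 have 2 starts each. Lyve1, Csf1r, Adgre1 and Maf were not matched. Of the 8 windows, 4 held the ETS core and 3 the MAF half-site, against 19.7% and 16.1% of 32851 promoters of the same length. A longer ETS motif, GAGGAAGT, was searched first and occurred in 0 of the 8 windows and in 2.44% of these 32851 promoters. The shorter core was taken after that result was seen. A match is a description of letters only.

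Of the 9 members that could be tested, Csf1r, Adgre1, Maf and Mrc1 were higher in the IZ, Lyve1, Cbr2 and Cd163 were lower, and Folr2 and F13a1 passed in neither direction (edgeR quasi-likelihood F-test, Benjamini-Hochberg adjusted over all genes tested, threshold 0.05). With total counts alone as library sizes, none of the 3 lower members was called and Cbr2 and Cd163 turned slightly positive. Called genes were common in this comparison, at 69.5% of all genes tested, with 36.3% higher and 33.1% lower, so the share of members called in either direction (7 of 9) was near the background. The median log2 fold change of the 9 tested members was 0.38, beside 0.05 over all genes tested. Timd4 had too few counts for the fit and was compared on its own. In bulk tissue, fewer cells of a type and less RNA per cell cannot be told apart.

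The choice of scaling moved the calls. With the main scaling (TMM, the trimmed mean of M values) the median log2 fold change of all genes was 0.05, whereas with total counts alone it was 1.14 and 85.8% of the calls were higher in place of 52.3%. Set against the median of all genes, the members kept nearly the same values, because a change of scaling shifts all genes by about the same amount. These values therefore cannot tell which scaling is right. Lyve1 lay at -1.35 with TMM and at -1.37 with total counts, Cd163 at -1.14 and -1.14, Cbr2 at -0.88 and -0.88, F13a1 at 0.00 and 0.03, and Adgre1 at 3.14 and 3.16 on the log2 scale.

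The libraries held 1237675 to 4738307 counts. Of the macrophage genes that are no members, the 12 genes shared by macrophages (such as Cd68, Tyrobp and Ptprc) were all higher in the IZ. Among them, Spi1 passed the filter on low counts through the IZ alone, which means that no sham library reached the filter's level. The 12 genes summed to 442.6 ± 66.8 CPM (SD) over the 8 sham libraries and 5165 ± 1223 CPM (SD) over the 9 IZ libraries, so their RNA was present in both tissues. Which cells it came from was not tested. The 10 cardiomyocyte genes were all lower, from 85915 ± 6332 CPM (SD) over the 8 sham libraries to 8393 ± 9622 CPM (SD) over the 9 IZ libraries. IZ replicate 1 stood apart, with a cardiomyocyte sum of 33708 CPM where the other IZ libraries reached at most 7717 CPM, and with the lowest sum of shared macrophage genes, at 2401 CPM against at least 4582 CPM in the others. IZ replicates 2 and 3 stood apart in several of the members below, and results that rest on them are given with and without them. The labels named no batch or date.

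**Figure D1:**
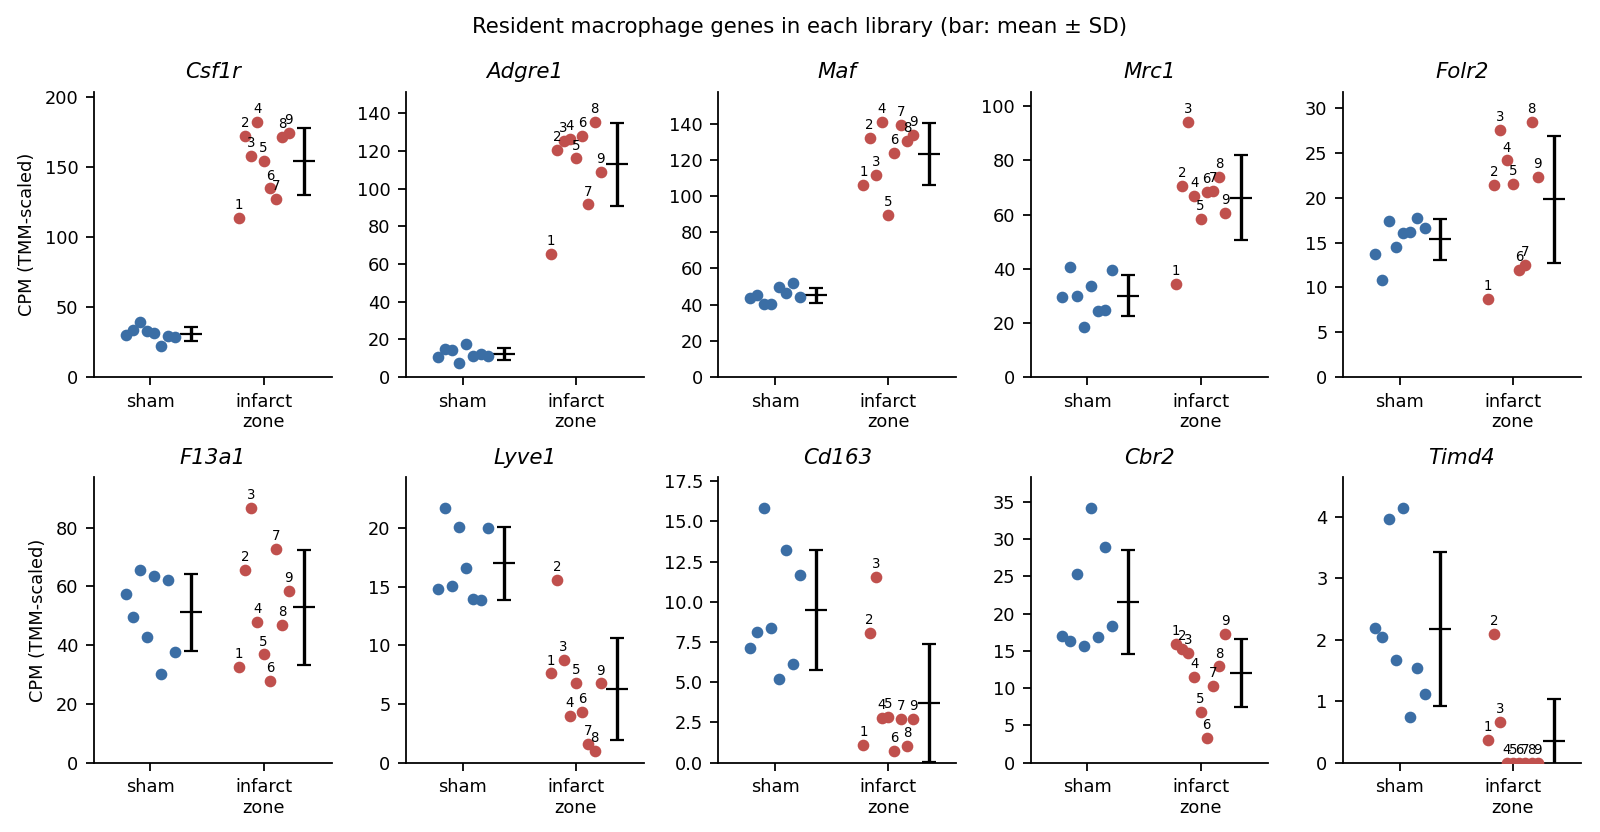
Levels of the 10 members in each library, in CPM on the scaled library size, with sham in blue, the infarct zone in red (numbers are replicate numbers) and bars for the mean ± SD. Csf1r, Adgre1 and Maf did not overlap between the groups, and infarct zone replicates 2 and 3 held the highest Lyve1, Cd163 and Timd4 of their group.

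Among the members, the receptors shared by all macrophages rose most. Csf1r encodes the receptor for the growth factors CSF1 and IL-34 and lies on mouse chromosome 18, where it overlaps the antisense gene Hmgxb3 and, on its own strand, Mir6983. The strand setting of the counting was not given in the sources used here. Whether reads of a member and of an antisense gene were counted apart is therefore not known. The level of Csf1r in sham ran from 22.1 CPM over a median of 30.8 CPM to 39.6 CPM, and in the IZ from 113.8 CPM over a median of 157.7 CPM to 181.9 CPM. Every IZ library was above every sham library, and the level rose 4.97-fold (log2 fold change 2.31 ± 0.13 SE, adjusted p = 9.3e-13). Adgre1 (chr17:57358691-57483527), which encodes the surface antigen F4/80, ran from 7.25 CPM over 11.7 CPM to 17.6 CPM in sham and from 65.2 CPM over 120.5 CPM to 135.3 CPM in the IZ. The groups again did not overlap, with IZ replicate 1 the lowest of the IZ, and the rise was 9.15-fold (log2 fold change 3.19 ± 0.17 SE, adjusted p = 4.8e-13). Among all genes tested, 16.6% had every IZ library above every sham library and 16.5% every one below, and of the 9 tested members 3 were wholly above and 0 wholly below.

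The relative Adgre5, which encodes the leukocyte antigen CD97, was higher at 0.43 ± 0.11 SE on the log2 scale, and Adgre4 was not tested. Csf1, a ligand of Csf1r, was at 35.8 ± 7.27 CPM (SD) over the 8 sham libraries and 34.7 ± 6.93 CPM (SD) over the 9 IZ libraries and was not called (log2 fold change -0.03 ± 0.14 SE, adjusted p = 0.84 by edgeR, 1.05 with total counts alone). Il34, the other ligand, was not tested, with 8 counts at most in a sham library and 29 at most in an IZ library. Csf2ra, the receptor subunit for the granulocyte-macrophage growth factor, was higher (log2 fold change 1.79 ± 0.26 SE).

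Maf (chr8:115682942-115707794), the transcription factor c-MAF, had the tightest values of the members in sham, from 40.1 CPM over 45.0 CPM to 52.0 CPM, a coefficient of variation of 9.10%. In the IZ it ran from 89.5 CPM over 130.6 CPM to 140.8 CPM. The groups did not overlap and the level was 2.71-fold higher in the IZ (log2 fold change 1.44 ± 0.11 SE, adjusted p = 7.9e-11). Maf overlaps the antisense gene Gm15655. Of the 16 other MAF-family and macrophage transcription factor genes, all tested, 8 were higher, 3 were lower and 5 were not called, with a median log2 fold change of 0.63. Of the small MAF genes, whose proteins lack an activation domain, Mafk was lower (-0.51 ± 0.20 SE, adjusted p = 0.026 by edgeR, lost in several settings and 0.55 with total counts alone), and Mafg at 0.02 and Maff at 0.48 were not called. Spi1, which encodes PU.1 and passed the filter on low counts through the IZ alone, was higher by 3.50 ± 0.24 SE. Irf8 rose by 2.67, Cebpa by 3.22, Runx1 by 3.73, Id3 by 1.53, Zeb2 by 1.45 and Bach1, a repressor of Hmox1, by 0.78 on the log2 scale. Runx1 held at most 13 counts in a sham library and at least 64 in an IZ library, so its place in the test could rest on the IZ. Klf2 and Klf4, factors of endothelium and myeloid cells, were lower at -0.90 ± 0.23 SE and -1.12 ± 0.21 SE, although with total counts alone they lay at 0.15 and -0.05. Nr1h3 (-0.18), Cebpb (0.18) and Tcf4 (0.05) were not called.

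Mrc1 (chr2:14229392-14332057) encodes the mannose receptor CD206, an endocytic receptor of tissue macrophages whose promoter is printed above. It ran from 18.4 CPM over 29.8 CPM to 40.7 CPM in sham and from 34.4 CPM over 68.3 CPM to 94.1 CPM in the IZ. In 8 IZ libraries the level was above all sham libraries, IZ replicate 1 alone lay within the sham range, and the level was 2.21-fold higher (log2 fold change 1.15 ± 0.17 SE, adjusted p = 2.5e-06). The microRNA gene Mir511 lies within Mrc1 on the same strand. Its relatives Mrc2, the collagen-binding receptor ENDO180, and Pla2r1 were higher too, at 2.78 ± 0.18 SE and 0.88 ± 0.27 SE on the log2 scale, and Ly75 was not tested.

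Folr2 and F13a1 showed no difference that passed. Folr2 (chr7:101839988-101857194), the folate receptor beta of resident macrophages, ran from 10.9 CPM over 16.1 CPM to 17.7 CPM in sham and from 8.70 CPM over 21.5 CPM to 28.4 CPM in the IZ. In 6 IZ libraries the level was above all sham libraries and in 1, IZ replicate 1, below them all (log2 fold change 0.38 ± 0.21 SE, adjusted p = 0.11). It passed without IZ replicate 1 (0.44, adjusted p = 0.0278) and without IZ replicate 6 (0.47, adjusted p = 0.0448), and it overlaps the antisense genes Gm10602 and Gm45319. The folate carrier Slc19a1 was not called (0.35 ± 0.32 SE), and Folr1 and Slc46a1 were not tested.

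F13a1 (chr13:36867178-37050244) encodes the A subunit of coagulation factor XIII, the transglutaminase that cross-links fibrin, and is expressed by resident macrophages, monocytes and platelets. It overlaps the antisense genes Gm30489 and Gm49144. It was the highest member in sham, from 30.1 CPM over 53.5 CPM to 65.7 CPM, and in the IZ it ran from 28.0 CPM over 47.9 CPM to 86.7 CPM. The groups overlapped nearly in full, with a log2 fold change of 0.05 ± 0.20 SE (adjusted p = 0.82), and the spread was wider in the IZ, with a coefficient of variation of 37.1% against 25.8%. Within the partners, F13b had no count in any library, and Tgm2, the tissue transglutaminase, was higher (0.56 ± 0.11 SE). Of 9 platelet and megakaryocyte genes 8 had a row in the table, and these were close to the limit of counting. The 1 tested, Gp1bb, was higher (3.34 ± 0.45 SE) but passed the filter through the IZ alone, and the untested Gp1ba, chosen after its values were seen, was at 2.62 ± 1.88 CPM (SD) over the 8 sham libraries and 0.324 ± 0.533 CPM (SD) over the 9 IZ libraries, of which 7 lay below all sham libraries. The summed level of the 8 genes was 9.97 ± 5.52 CPM (SD) over the 8 sham libraries and 13.5 ± 3.93 CPM (SD) over the 9 IZ libraries, and their part in the F13a1 values was not tested.

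Lyve1, Cbr2 and Cd163 went the other way with TMM scaling. Lyve1 (chr7:110850607-110863239), a receptor for hyaluronan, ran from 13.9 CPM over 15.8 CPM to 21.7 CPM in sham and from 1.03 CPM over 6.76 CPM to 15.6 CPM in the IZ. In 8 IZ libraries the level was below all sham libraries, and only IZ replicate 2, at 15.6 CPM, was within the sham range. The level was 2.46-fold lower in the IZ (log2 fold change -1.30 ± 0.30 SE, adjusted p = 0.00056 by edgeR). Without IZ replicates 2 and 3 the IZ mean was 4.59 ± 2.60 CPM (SD, n = 7) against 17.001 ± 3.13 CPM (SD) over the 8 sham libraries. The log2 fold change was then -1.82 ± 0.27 SE. These 2 libraries were left out after the values were seen. They held the highest Lyve1 of the IZ, so the mean without them had to be lower.

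Lyve1 also marks lymphatic endothelium, so the lymphatic genes stand beside it. Of the 7 tested, 3 were higher (1 of them passed the filter through the IZ alone), 2 were lower and 2 were not called. Pdpn was the highest at 3.34 on the log2 scale, and Prox1, the defining lymphatic factor, the lowest at -2.81 ± 0.40 SE. Reln, which was not tested and was chosen after its values were seen, was at 3.52 ± 1.59 CPM (SD) over the 8 sham libraries and 1.24 ± 0.927 CPM (SD) over the 9 IZ libraries, of which 8 lay below all sham libraries. The sum of the lymphatic genes was 120.3 ± 20.5 CPM (SD) over the 8 sham libraries and 124.0 ± 13.03 CPM (SD) over the 9 IZ libraries, and their part in the Lyve1 result was not tested. The other hyaluronan genes moved upwards or were too rare: the receptors Cd44, Hmmr and Stab1 were higher at 2.98, 3.07 and 1.94 on the log2 scale (Hmmr passed the filter through the IZ alone), while Stab2 and the synthase genes Has1, Has2 and Has3 were not tested.

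Cbr2 (chr11:120729489-120732114) encodes a carbonyl reductase found in resident macrophages. It ran from 15.6 CPM over 17.6 CPM to 34.2 CPM in sham and from 3.27 CPM over 12.9 CPM to 17.2 CPM in the IZ, and 7 IZ libraries were below all sham libraries. The level was 1.77-fold lower (log2 fold change -0.82 ± 0.24 SE, adjusted p = 0.0039). Its 3′ end is near-identical to the pseudogene Gm11771, so its reads could be split between them. In the same enzyme family, Cbr4 was lower at -1.93 ± 0.18 SE, Cbr3 was higher at 1.08 ± 0.26 SE, and Cbr1 was not called at -0.40 ± 0.18 SE (0.69 with total counts alone).

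Cd163 (chr6:124304656-124330527) encodes the scavenger receptor for haptoglobin-haemoglobin complexes. It ran from 5.18 CPM over 8.25 CPM to 15.8 CPM in sham, and in the IZ from 0.73 CPM over 2.71 CPM to 11.5 CPM, where 7 libraries held 2 to 14 counts. It passed the filter on low counts through 6 sham and 4 IZ libraries. Those 7 libraries were below all sham libraries, and IZ replicates 2 and 3, at 8.07 and 11.5 CPM, were inside the sham range. The level was 2.13-fold lower (log2 fold change -1.09 ± 0.41 SE, adjusted p = 0.022), and the mean of the 7 was 1.98 ± 0.97 CPM (SD, n = 7). In a fit that left IZ replicates 2 and 3 out, or either of them, Cd163 held too few counts to be tested. With IZ replicates 1, 2 and 3 left out it was tested, at -2.08 ± 0.34 SE. Replicates 2 and 3 held the highest Cd163 of the IZ and were left out after the values were seen. A lower level without them was therefore fixed in advance.

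Genes that act with Cd163 in haem handling went up in contrast: Hp, which encodes haptoglobin, was higher by 4.02 ± 0.65 SE (it passed the filter through the IZ alone) and Hmox1, the haem oxygenase, by 5.04 ± 0.54 SE on the log2 scale, the highest of the partner genes. Hmox1 ran from 4.14 CPM over 7.08 CPM to 18.2 CPM in sham and from 12.3 CPM over 222.3 CPM to 789.6 CPM in the IZ. In 8 IZ libraries the level was above all sham libraries, and IZ replicate 1 lay within the sham range.

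Timd4 (chr11:46810800-46844332) encodes TIM-4, a receptor for phosphatidylserine on dying cells, and marks resident macrophages of the mouse heart. It had 1 to 8 counts in every sham library, and in the IZ 15 counts in replicate 2, 4 in replicate 3, 1 in replicate 1 and 0 in the other 6 libraries. Its level was 2.17 ± 1.25 CPM (SD) over the 8 sham libraries and 0.345 ± 0.694 CPM (SD) over the 9 IZ libraries. The difference was -1.83 CPM (exact two-sided permutation over 24310 groupings, p = 0.0013), and -0.95 CPM with total counts alone (exact permutation p = 0.061). Without IZ replicates 2 and 3, left out after the values were seen, the difference was -2.12 CPM. These 2 libraries held the highest Timd4 of the IZ, so a larger difference without them was fixed in advance. A count of 0 in an IZ library allows up to 0.59 to 1.70 CPM, for counting error only, and 4 of the 8 sham libraries were above 1.70 CPM. The other receptors and bridging proteins for dying cells were higher where tested: Mertk rose by 2.01 ± 0.26 SE, Axl by 1.26 ± 0.13 SE, Pros1 by 1.02 ± 0.16 SE, Mfge8 by 0.85 ± 0.13 SE and Gas6 by 0.49 ± 0.17 SE on the log2 scale, and Havcr2, which encodes TIM-3 of the same family and passed the filter through the IZ alone, was higher by 4.48 ± 0.35 SE.

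**Figure D2:**
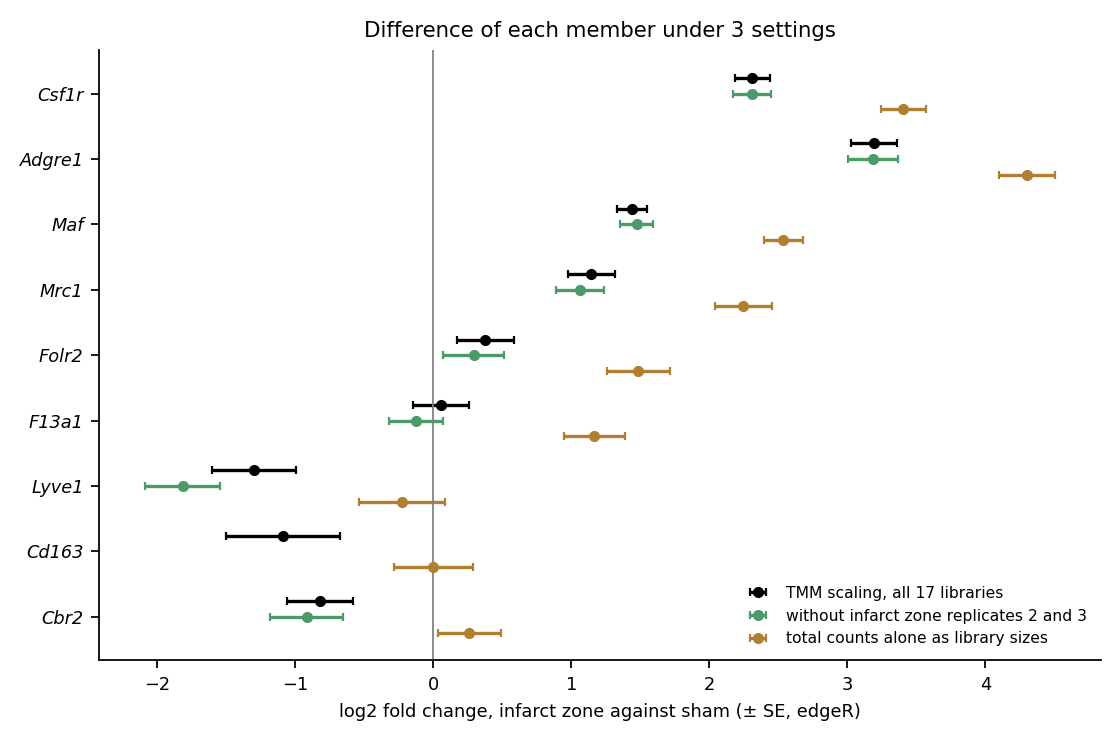
Log2 fold change of each tested member (infarct zone against sham, ± SE, edgeR) with TMM scaling, with infarct zone replicates 2 and 3 left out (no point for Cd163, which then had too few counts) and with total counts alone. All members moved up by about the same amount with total counts alone, where Cbr2 and Cd163 turned positive and Lyve1 came to -0.23.

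Within the IZ, replicates 2 and 3 held the highest Lyve1, Cd163 and Timd4, while other members peaked elsewhere, Folr2 in replicate 8, Cbr2 in replicate 9 and Maf in replicate 4. Replicates 2 and 3 were also the deepest IZ libraries, at 4738307 and 4053976 counts. Timd4 in replicate 3, at 0.66 CPM (4 counts), lay below the 1.70 CPM that a count of 0 allows in replicate 5. The summed level of the 30 other resident macrophage genes was 6210 CPM in replicate 2, the third highest of the 9 IZ libraries, and 5449 CPM in replicate 3, the third lowest. Genes of the outer heart surface and of fat were high in replicate 2 as well. The mesothelial genes, summed over 6 genes, came to 134.4 CPM in replicate 2, 31.6 CPM in replicate 3 and 77.0 CPM in replicate 6, against 10.5 to 18.1 CPM in the others and 14.6 ± 4.78 CPM (SD) over the 8 sham libraries. The adipocyte genes, summed over 4 genes, came to 41.9, 8.41 and 14.1 CPM in replicates 2, 3 and 7, against at most 0.52 CPM in the others and 1.97 ± 2.03 CPM (SD) over the 8 sham libraries. Replicate 6, high in mesothelial genes alone, had the lowest Cd163, and replicate 7, high in adipocyte genes alone, had 3 counts of Lyve1. These 2 gene lists were chosen after the values were seen, and their part in the results was not tested.

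**Figure D3:**
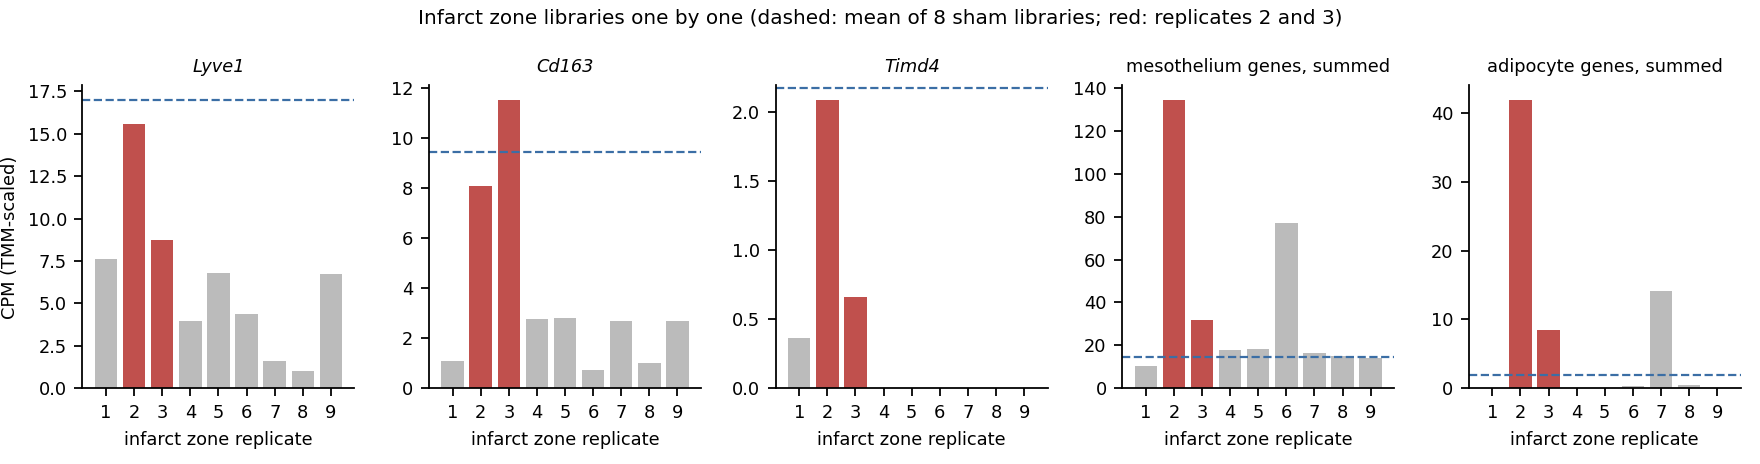
Lyve1, Cd163 and Timd4 in each of the 9 infarct zone libraries (CPM) beside the summed mesothelial and adipocyte genes, with replicates 2 and 3 in red and the sham mean dashed. Replicate 2 held 15.6 CPM of Lyve1 and 134.4 CPM of mesothelial genes, and replicate 6 held 77.0 CPM of mesothelial genes with 0.73 CPM of Cd163.

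The order of the levels changed between the tissues. In sham it ran F13a1, Maf, Csf1r, Mrc1, Cbr2, Lyve1, Folr2, Adgre1, Cd163 and Timd4, and among neighbours only Maf over Csf1r and Cd163 over Timd4 had ranges that did not overlap. In the IZ it ran Csf1r, Maf, Adgre1, Mrc1, F13a1, Folr2, Cbr2, Lyve1, Cd163 and Timd4, and all neighbours had ranges that overlapped. Adgre1 moved from the eighth place to the third.

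Set against Csf1r in the same library, which needs no scaling, most members lay lower in the IZ, as did most genes, and Csf1r itself was 4.97-fold higher. Over the 12300 other genes tested, 74.9% had every IZ library below every sham library per count of Csf1r and 0.813% every one above. Of the 8 other tested members 5 were wholly below, a share not above that background, and 1 was wholly above. Per 100 counts of Csf1r, Lyve1 went from 38.0 to 69.2 in sham to 0.60 to 9.06 in the IZ, a mean of 55.5 against 4.09. Cd163 went from a mean of 31.3 to 2.35, Cbr2 from 70.2 to 7.88, Folr2 from 50.9 to 12.5, F13a1 from 163.9 to 34.5 and Timd4, which was not among the genes tested, from 6.73 to 0.217, and none of these overlapped between the groups. Mrc1 (98.3 against 43.1) and Maf (150.0 against 81.2) overlapped, and Adgre1 alone lay higher in every IZ library, at 73.4 against 40.3.

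**Figure D4:**
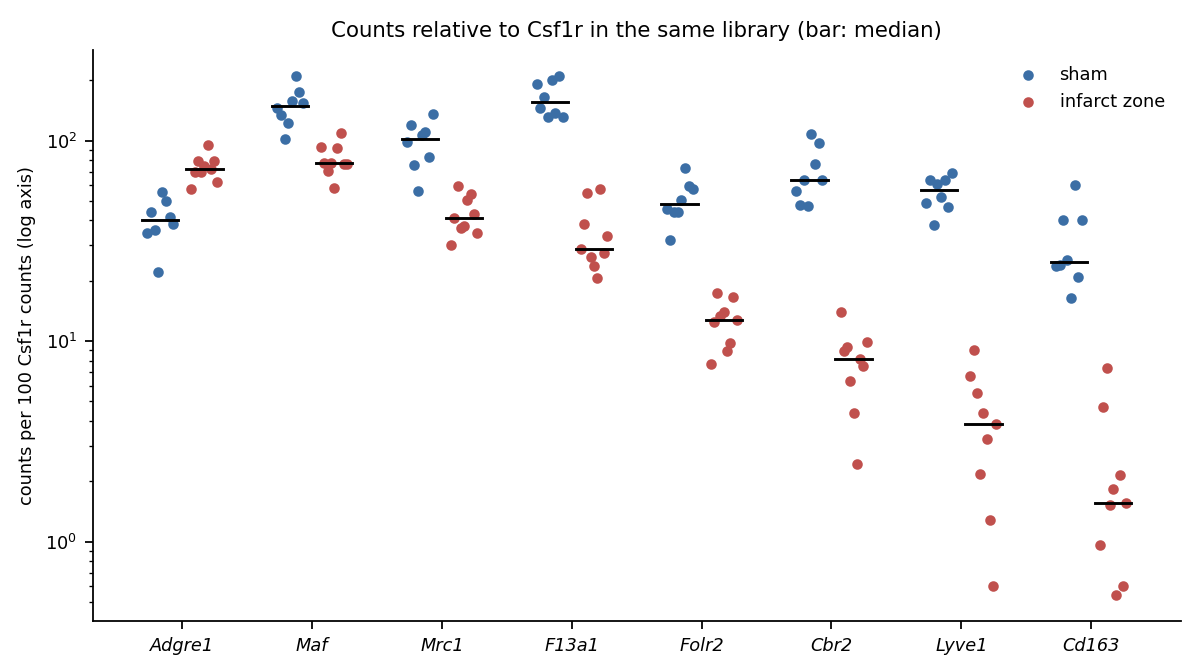
Counts of 8 members per 100 Csf1r counts in the same library on a log axis, one point per library and a bar at the median, sham in blue and infarct zone in red. Lyve1, Cd163, Cbr2, Folr2 and F13a1 separate fully (lower in the infarct zone), as 74.9% of all other genes tested did, Adgre1 separates in the other direction, and Mrc1 and Maf overlap.

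A fit with the summed counts of the 12 genes shared by macrophages as library size asked whether a member moved more or less than those genes. All 9 tested members lay below 0, and 8 of the 9 were called lower, but so were 95.7% of all genes tested, with 0.585% called higher. Adgre1 was nearest to the shared genes, at -0.34 ± 0.18 SE on the log2 scale (adjusted p = 0.073), followed by Csf1r at -1.18 ± 0.16 SE, Maf at -2.05 and Mrc1 at -2.39. Folr2 lay at -3.20 and F13a1 at -3.46, near the median of all genes of -3.42. Cbr2 lay at -4.30, Cd163 at -4.66 and Lyve1 at -4.81 ± 0.39 SE.

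Few relations between members from library to library passed the test. Within each group, 36 pairs of the 9 tested members and 9 relations with the mean of the shared macrophage genes were computed, with p-values from exact permutations of pairings adjusted over all 90. In the IZ, 1 of 45 passed: Folr2 followed the shared macrophage genes (Pearson's r = 0.86, exact p = 0.00028, adjusted p = 0.025; Spearman's rho = 0.90, exact p = 0.0020, adjusted p = 0.18; r = 0.86 without the 2 libraries farthest from the median). No relation passed without IZ replicate 1, 2, 4, 7, 8 or 9, each left out alone. The next were Csf1r with the shared genes (r = 0.84, exact p = 0.0013, adjusted p = 0.058; rho = 0.80, exact p = 0.014, adjusted p = 0.62), Folr2 with Csf1r (r = 0.92, exact p = 0.0021, adjusted p = 0.061; rho = 0.68, exact p = 0.050, adjusted p = 0.64) and Adgre1 with the shared genes (r = 0.93, exact p = 0.0027, adjusted p = 0.061; rho = 0.77, exact p = 0.021, adjusted p = 0.64). Without the 2 farthest libraries these r were 0.62, 0.80 and 0.43. In the IZ 10 of the 45 passed at an unadjusted exact p under 0.05, against 2 in sham, where 0 passed after adjustment. Adgre1 and Csf1r followed each other in the IZ (r = 0.77, exact p = 0.014, adjusted p = 0.18; rho = 0.43, exact p = 0.25, adjusted p = 0.66), which rested on 2 libraries, since r was -0.16 without the 2 farthest. Cd163 and F13a1 had an r of 0.81 (exact p = 0.0077, adjusted p = 0.14; rho = 0.70, exact p = 0.043, adjusted p = 0.64), which was 0.59 without the 2 farthest.

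**Figure D5:**
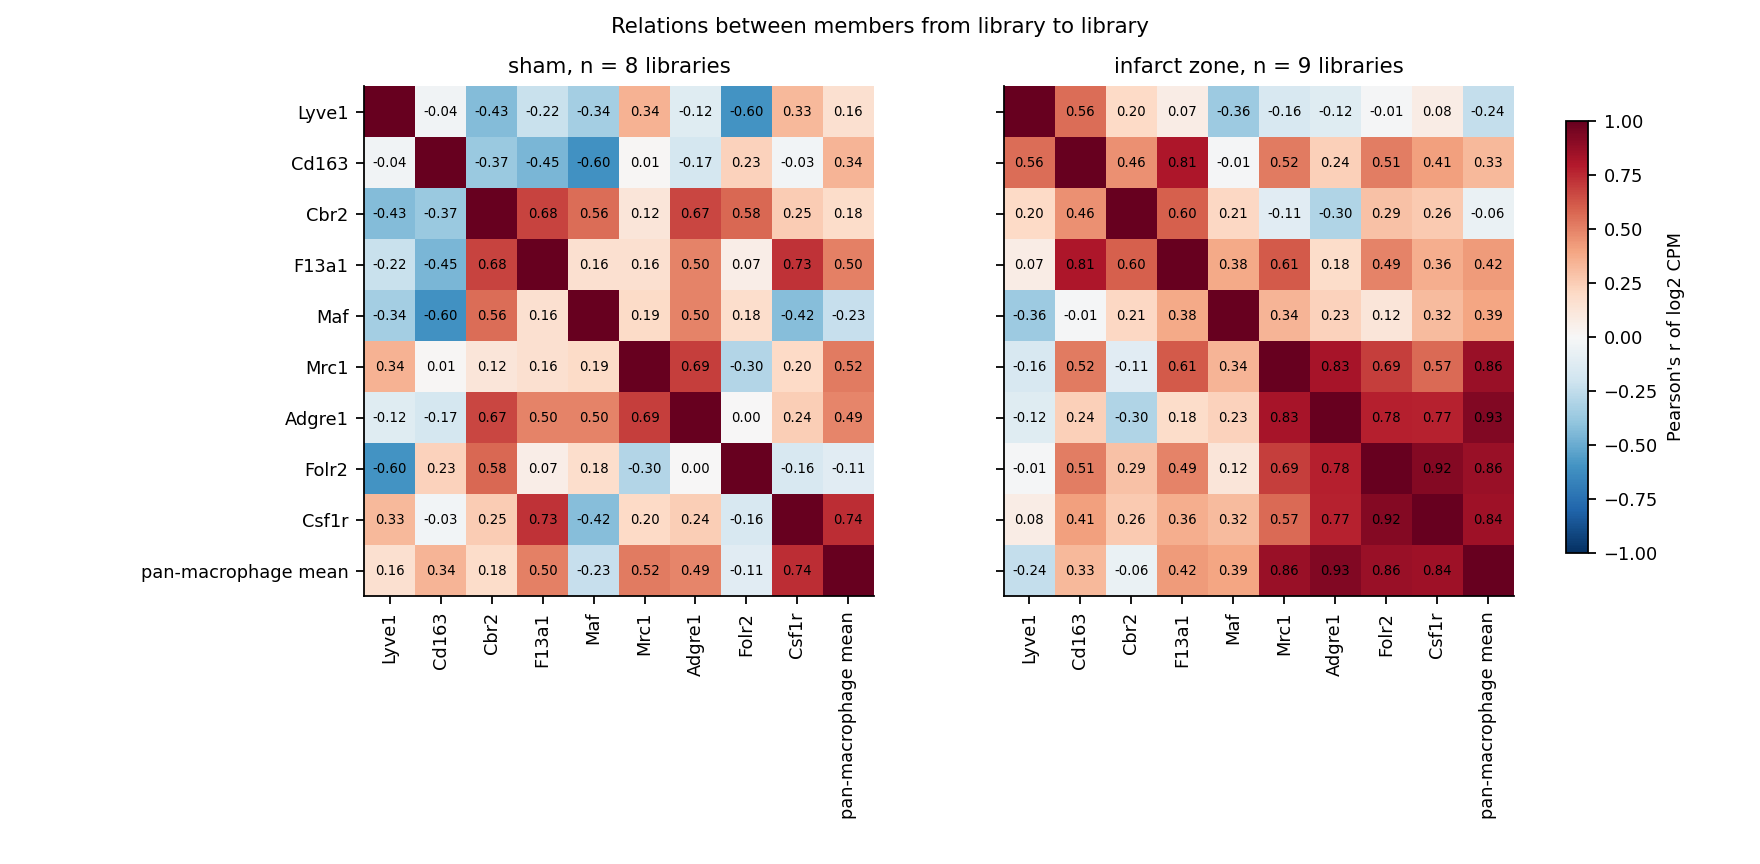
Pearson's r of log2 CPM between the 9 tested members and the mean of the genes shared by macrophages, within sham and within the infarct zone. In the infarct zone the relation of Folr2 with the shared macrophage genes (0.86) was the only one that passed after adjustment over all 90, and none passed in sham.

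As a description, the genes most like each member in their deviations from the group means over the 17 libraries, among 9354 genes averaging 10 CPM or more, were named by Pearson's r. Spi1 (0.88) and Ctsh (0.84), a lysosomal protease, were nearest to Csf1r, Rnh1 (0.85) to Folr2, Tuba1a (0.86) to Mrc1, and Fbxo38 (0.85) to Maf. Cxcl12 (0.79) was nearest to F13a1, Gps1 (0.84) to Cbr2, Paxbp1 (0.79) to Lyve1 and Sf3a3 (0.78) to Cd163. The next in likeness were Gm8624 for Csf1r (0.81), Gsdmd and Taok3 for Adgre1 (0.83 and 0.82), Gm5805 and Mpp1 for Folr2 (0.85 and 0.84), Ncapg2 and Fubp3 for Mrc1 (0.83 and 0.82), Cul4b and Wwp1 for Maf (0.81 and 0.80), Xpot and Ywhaz for F13a1 (0.77 and 0.77), Rbbp4 and Dnajc8 for Cbr2 (0.81 and 0.81), Ezr and Vps26b for Lyve1 (0.78 and 0.78) and Snrpa1 and Hgsnat for Cd163 (0.77 and 0.75). The points share library size and RNA composition.

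The other lists of macrophage genes are given beside the members, with no test of a difference between lists. Among the 30 other resident macrophage genes, 23 were tested, 1 of them after passing the filter through the IZ alone, and 15 were higher, 1 was lower and 7 were not called. Clec4n was the highest, at 4.33 ± 0.36 SE, with 11 counts at most in a sham library and at least 56 in an IZ library. A gene not counted as passing through the IZ alone could thus still owe its place in the test mainly to the IZ, as Clec4n did. Slco2b1, a transporter of organic anions, was the lowest, at -1.12 ± 0.20 SE (-0.05 with total counts alone). Of the 7 not tested, 2 lay low in the IZ and were chosen after their values were seen. Retnla was at 4.53 ± 2.35 CPM (SD) over the 8 sham libraries and 0.462 ± 0.580 CPM (SD) over the 9 IZ libraries, all 9 below all sham libraries, and Ccl24 was at 4.17 ± 2.06 CPM (SD) over the 8 sham libraries and 0.952 ± 1.40 CPM (SD) over the 9 IZ libraries, 7 of them below. Of 33 partner genes 21 were tested, 3 of them after passing the filter through the IZ alone, and among the other 18 tested genes 14 were higher, 1 was lower and 3 were not called.

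Lists of other cells are given by their summed levels, since many of their genes entered the test through the IZ alone, where such a gene had to be higher. The 15 genes of recruited monocytes with a row summed to 64.4 ± 9.64 CPM (SD) over the 8 sham libraries and 646.4 ± 235.4 CPM (SD) over the 9 IZ libraries. Of the 11 tested, 5 passed through the IZ alone, Chil3 (5.18) being the highest, and the other 6 were higher, with Ly6c2 the lowest at 0.64 on the log2 scale. The 10 neutrophil genes summed to 8.55 ± 2.94 CPM (SD) over the 8 sham libraries and 92.8 ± 71.4 CPM (SD) over the 9 IZ libraries, and of the 4 tested 2 passed through the IZ alone, with values from Csf3r (5.17) to S100a9 (2.93). The 8 dendritic-cell genes summed to 17.2 ± 6.71 CPM (SD) over the 8 sham libraries and 23.1 ± 2.86 CPM (SD) over the 9 IZ libraries. Zbtb46, the 1 tested, was lower (-0.81, with 0.25 at total counts alone), whereas in 5 of the 7 not tested, Flt3, Xcr1, Itgae, Ccr7 and Cd209a, chosen after their values were seen, at least 7 IZ libraries lay above all sham libraries. The 10 lymphocyte genes summed to 3.55 ± 1.76 CPM (SD) over the 8 sham libraries and 15.1 ± 5.36 CPM (SD) over the 9 IZ libraries, and Cd79b, the 1 tested, passed through the IZ alone (2.25). The 14 cell cycle genes summed to 58.6 ± 5.29 CPM (SD) over the 8 sham libraries and 313.6 ± 80.8 CPM (SD) over the 9 IZ libraries, and of the 13 tested, from Mcm2 (0.80) to Birc5 (3.93), 9 passed through the IZ alone and the other 4 were higher. Of 10 blood endothelial genes, 5 were lower and 5 were not called, from Emcn (-0.04) to Flt1 (-1.90). Fibroblast genes were higher in 9 of 10 (1 of the 9 passed through the IZ alone), from Dcn (0.04, not called) to Col1a1 (4.002). Cardiomyocyte genes were lower in 10 of 10, from Actc1 (-2.12) to Tnni3 (-4.19). Of the mesothelial genes, Msln was higher (2.22) after passing through the IZ alone and Wt1 was not called (0.03), no adipocyte gene could be tested, and the atrial genes Myl4 (-3.35) and Myl7 (-4.97) were lower. The shared macrophage genes ran from Aif1 (2.65) to Ctss (4.46).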

How the data were processed

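Hearts of 17 mice were analysed. The authors trimmed reads with Cutadapt, mapped them to mm10, counted them per gene with HTSeq and removed PCR duplicates by molecular identifiers (Bowtie2 is named in the submitters' processing notes). The deposited values are raw counts without normalization. The annotation release and strand setting were not given in the sources used here. The 35 merged groups of overlapping genes (0.152% of counts) stayed in library sizes.

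Genes passing filterByExpr (minimum 10 counts) were fitted with edgeR 4.0.16 in R 4.3.3 (TMM, two-sided quasi-likelihood F-test, no covariates), adjusted over all genes at 0.05. Standard errors came from the F statistic, and log2 CPM used a prior count of 1. No 2 libraries agreed within sampling noise (chi-square per degree of freedom at least 2.41). The fits were also run on simulated data with equal numbers of genes changed up and down. This cannot test the choice of scaling. Near-identical 3′ ends (last 500 bases, at least 100 at 95% identity) were sought with BLAST 2.17.0, and positions are from GENCODE on GRCm38.

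The genes named were the members, the tested partner and transcription factor genes, the highest and lowest of every other list and the 3 genes most like each member, and the results of 2 genes that met this rule are not reported here, and other genes given with values were chosen after these were seen, as stated beside them. Members and lists were chosen with earlier results of these data known. The mesothelial, adipocyte and atrial lists and the removal of several infarct zone replicates together were chosen after seeing the data. Alternatives were DESeq2 size factors, the Wald test of DESeq2 1.42.0, upper quartile scaling, total counts alone, no filter, a minimum mean of 50 counts, thinning, removal of mitochondrial features, a block for the replicate number, and each library left out in turn. SciPy 1.17.1 gave the permutation tests.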

Additional observations from a re-analysis of the deposited data

Results flagged for a closer look

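Of 54 group values tested for 1 library far from the others, 8 were flagged. Chance flags about 1 in 20 for normally spread values. That rate does not hold for the mesothelial, adipocyte and atrial lists, which were chosen after the data were seen. Nor does it hold for Timd4 in the IZ, where 6 of the 9 libraries had 0 counts. Among the members it was Timd4, at 2.09 CPM in IZ replicate 2 with the next library at 0.66 CPM. The same library held the highest sum of adipocyte genes, 41.9 CPM with the next at 14.1 CPM, and sham replicate 5 held 6.21 CPM of these genes with the next at 2.94 CPM. IZ replicate 1 held 33708 CPM of cardiomyocyte genes with the next at 7717 CPM, and the lowest sum of genes shared by macrophages, 2401 CPM with the next at 4582 CPM. In sham replicate 3 that sum was the highest of its group, 589.9 CPM with the next at 467.7 CPM. IZ replicate 7 held 23.3 CPM of atrial genes with the next at 12.4 CPM, and sham replicate 2 held 31.2 CPM of dendritic-cell genes with the next at 20.3 CPM. Without IZ replicate 2 the Timd4 difference was -2.05 CPM. That library held the highest Timd4 of the IZ, so a larger difference without it was fixed in advance.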

How the results depend on the processing

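Of 460 alternative values of the members, 449 kept their side of the threshold, and those that were called also kept their direction. Values not called could change sign among the 449. F13a1 did, from 0.055 to -0.013 with a block for the replicate number and to -0.125 without IZ replicates 2 and 3. With total counts alone, 0 members were called lower, and values turned sign for Cbr2 (0.26), Cd163 (0.0020), Cbr1 (0.69), Csf1 (1.05), Emcn (1.04), Klf2 (0.15), Mafk (0.55), Nr1h3 (0.91) and Zbtb46 (0.25), while the median of all genes was 1.14, F13a1 was called at 1.17 and Folr2 at 1.48. Folr2 was called with upper quartile scaling too (0.49, edgeR adjusted p = 0.0403), where the median of all genes was 0.17. With a minimum mean of 50 counts, 5239 genes were called and 0 members were lower, since Lyve1, Cbr2 and Cd163 were then not tested. The number of genes called was 8544, 10664 with no filter and 10295 by the Wald test of DESeq2, and in these last 2 settings 4 members were lower, Timd4 then being tested. Leaving out 1 library gave 7962 to 8614 genes, 4 to 5 members higher, 2 to 3 lower and 7 to 9 lower relative to the shared macrophage genes. Relations past the threshold in the IZ were 1, and 2 with DESeq2 size factors, 0 with total counts alone, 0 without IZ replicates 2 and 3, and 0 to 3 without 1 library, with 0 to 1 in sham. The cause was not tested.

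The replicate numbers shared by the groups gave correlations of deviations from -0.216 to 0.128, so they are numbers only. With the number as a replicate block, 8079 genes, 4 members higher and 3 lower were called, and 8 members were lower relative to the shared macrophage genes. Depth limited Timd4 and Cd163, whose counts were low.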
